A study of Homo sapiens with 12 samples.

Results

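The intervals described here are the anti-HA ChIP-seq peaks of HepG2 cells that had been stably transfected with HA-tagged HOXA13. They are all 34089 intervals on chromosomes 1 to 22 in the list that set 1 anti-HA library of these cells against their own input, out of 40657 intervals of that list on all sequences and 164693 in the 4 deposited lists. The other 3 lists came from anti-HOXA13 ChIP in untransfected HepG2 and Huh7 cells and from anti-HA ChIP in Huh7 cells stably transfected with the tagged protein, each over the input of the same cells. Growth in DMEM with 10% serum was shared by all 12 libraries, and the IgG libraries of all 4 cell populations were not used here. The labels class both lines as hepatocellular carcinoma lines, although HepG2 is often described as hepatoblastoma-derived. They do not say how strongly the tagged protein was expressed, which promoter drove it or whether 1 clone was used. An anti-HA ChIP from cells without the tag was not analysed here, so signal of the antibody that does not depend on the tag was not measured. No condition had a replicate, so every value below describes 1 pair of libraries, and no test between conditions was made.

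HOXA13 is the last gene of the HOXA cluster and encodes a homeodomain transcription factor that binds AT-rich DNA. It is best known from limb, gut and urogenital development, where it acts in the hindmost and outermost parts of the body plan. In ChIP-seq, a protein held at DNA gives a pile of overlapping fragments, and a peak caller compares the height of that pile with the height expected from input chromatin. In this list the ratio of the pair at the summit is the fold, as the authors deposited it, and all fold and significance values below are theirs.

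The coordinates are those of GRCh37, which the sequence names point to, and are given 1-based. The submitters' processing notes name GRCh38 instead. Because no GRCh37 sequence or gene annotation was used here, no bases are printed, and exons, introns and nearest genes of single intervals were not analysed.

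The list held a small class of tall intervals and a large class of low ones. Of the 34089 intervals, 3694 reached 5-fold, which is 10.8% of the list, and 257 reached 15-fold. In the other lists the share at 5-fold was 0.0982% of 71316 intervals for HepG2 anti-HOXA13, 0.0741% of 28346 for Huh7 anti-HA and 2.01% of 10246 for Huh7 anti-HOXA13. The fold was 41.4 at rank 1, 18.8 at rank 100, 9.32 at rank 1000, 4.30 at rank 5000 and 2.73 at rank 20000. A large share of the list was weak: 16834 intervals (49.4%, exact 95% binomial interval 48.9 to 49.9%) had q above 0.05. Strong intervals, with −log10 q of 5 or more, numbered 7216, which is 21.2% of the list, against 0.468% in HepG2 anti-HOXA13, 0.374% in Huh7 anti-HA and 2.6% in Huh7 anti-HOXA13. Taken separately, the median ChIP pileup at the summit was 13 fragments, the median expected pileup 3.77 and the median fold 2.83.

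The highest fold, 41.4 (95% Poisson interval of the ChIP pileup 35.1 to 48.6), stood on chromosome 4 at 56435018 to 56435652. Its pileup was 149 fragments where 2.62 were expected, and 2.62 is the genome background. No other list held an interval there. The interval of rank 2 lay on chromosome 21 at 9825450 to 9833610, with 38-fold (33.4 to 43.1) from 242 fragments over 5.39 expected. It was also the longest interval of the list at 8161 bp, and it overlapped intervals of 17-fold in HepG2 anti-HOXA13 and 12.9-fold in Huh7 anti-HA.

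Ranks 3 to 6 lay on 4 chromosomes and had similar heights. Chromosome 8, 99610079 to 99610803, reached 33.9-fold (29.1 to 39.2) and chromosome 1, 29074636 to 29075145, reached 32.8-fold (28.3 to 37.8), and neither met an interval of another list. Chromosome 6, 71558992 to 71559947, stood at 31.1-fold (25.8 to 37.1) and overlapped a Huh7 anti-HA interval of 2.83-fold. Chromosome 3, 80667455 to 80667923, stood at 30.7-fold (26 to 36) and overlapped 2.49-fold in Huh7 anti-HA and 3.31-fold in HepG2 anti-HOXA13. The counting intervals of neighbours in rank overlapped throughout the 20 highest, so the order of neighbours is not resolved by the counts. Ranks far apart were separated, with 35.1 to 48.6 at rank 1 and 21.7 to 30.5 at rank 20.

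Rank 7 was the interval 88020525 to 88021019 of chromosome 7, whose 30.4-fold (25 to 36.6) came from 109 fragments, and Huh7 anti-HA held 5.11-fold there. Chromosome 20, 50283462 to 50284149, had the second-tallest pile of the 20 highest, 231 fragments, but 6.77 were expected there and the fold was 29.9 (26.2 to 34.0). Chromosome 4 held ranks 9 and 10, at 54321878 to 54322489 with 29.5-fold (24.6 to 35.1) and at 69899940 to 69900594 with 29-fold (24.5 to 34.1). Chromosome 7 held ranks 11 and 12, at 55055383 to 55055987 with 28.1-fold (23.2 to 33.7) and at 100539858 to 100540510 with 27.8-fold (23.3 to 32.9).

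The remaining 8 of the 20 highest ran from 27.8-fold down to 25.8-fold. They lay on chromosome 9 at 114111863, chromosome 13 at 49945998, chromosome 14 at 70180567 and 63267153, chromosome 1 at 110490763 and 113564317, chromosome 5 at 37090394 and chromosome 11 at 58693736 (start positions). The 20 highest were spread over 13 chromosomes. Their pileups ran from 98 to 242 fragments with a median of 144.5, and their expected pileups from 2.62 to 6.77. Leaving aside the chromosome 21 interval, they were 469 to 956 bp wide.

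A Huh7 anti-HA interval overlapped 11 of these 20, a HepG2 anti-HOXA13 interval overlapped 2, and none overlapped a Huh7 anti-HOXA13 interval, which allows a share of up to 15%. Over the 257 intervals of at least 15-fold the shares were 78 (30.4%, 24.8 to 36.4%), 9 (3.50%, 1.61 to 6.54%) and 1 (0.389%, 0.00985 to 2.15%), and 174 (67.7%, 61.6 to 73.4%) met no other list. Over the whole list 2380 intervals (6.98%, 6.71 to 7.26%) overlapped Huh7 anti-HA, 1446 (4.24%, 4.03 to 4.46%) overlapped HepG2 anti-HOXA13 and 213 (0.625%, 0.544 to 0.714%) overlapped Huh7 anti-HOXA13. Where a Huh7 anti-HA interval met one of the 20, its fold ran from 2.05 to 5.11, except 12.9 on chromosome 21.

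**Figure D1:**
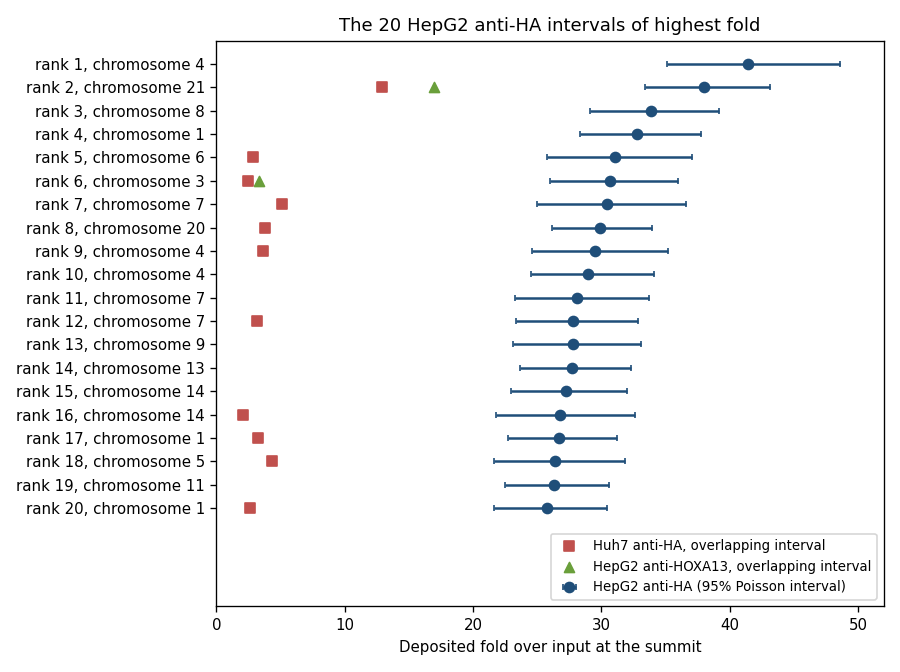
Deposited fold over input (horizontal axis) of the 20 HepG2 anti-HA intervals of highest fold, by rank and chromosome; bars are 95% Poisson intervals of the ChIP pileup, squares and triangles the fold of overlapping intervals in Huh7 anti-HA and HepG2 anti-HOXA13. All 20 stood at 25.8-fold or more, and 10 of the 11 overlapping Huh7 anti-HA intervals stood at 5.11-fold or less.

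Intervals were short, and the tall ones were wider and more symmetric. The shortest width, 135 bp, was shared by 5286 intervals (15.5%, 15.1 to 15.9%), and the median was 195 bp. Intervals from 3- to 5-fold had a median width of 199 bp, those from 5- to 8-fold 361 bp, those from 8- to 15-fold 474 bp and those of 15-fold or more 570 bp. The summit lay within 0.1 interval widths of the midpoint in 47.0% of intervals between 3- and 5-fold and in 53.9% between 5- and 8-fold. It did so in 66.9% of the 257 highest. Across the 34089 intervals, which share 1 pair of libraries, width and fold were related with Spearman's rho of 0.36, and width and pileup with rho of 0.55. Width, fold and pileup are read from the same pile of fragments and are not independent measures. All intervals together covered 8.08 Mb, or 0.300% of the 2698 Mb of chromosomes 1 to 22 over which intervals of any list were found.

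**Figure D2:**
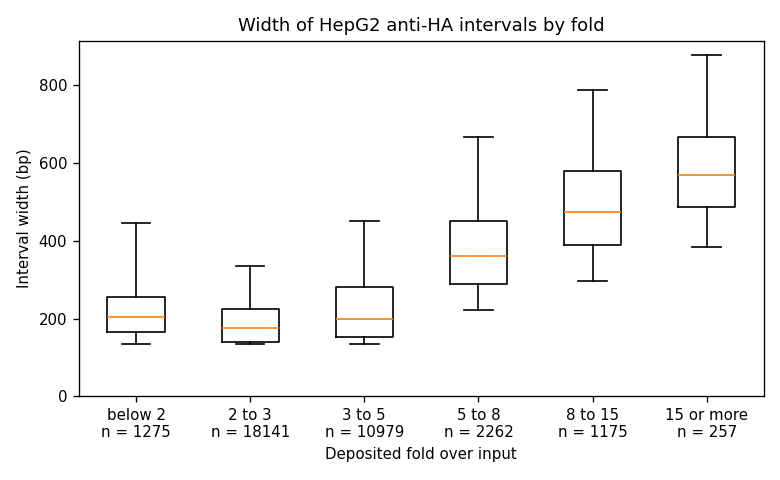
Interval width in bp (vertical axis) by class of deposited fold; boxes give the median and quartiles, whiskers the 5th and 95th percentiles. The median widened from 199 bp at 3- to 5-fold to 570 bp at 15-fold or more, and the class below 2-fold had a median of 204 bp.

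Among wide intervals, tall piles and stretches of high input stood side by side. Of the 1589 intervals of 500 bp or more, 1082 (68.1%, 65.7 to 70.4%) reached 5-fold, against 10.8% of the whole list, and 1589 is 4.66% of this list against 0.341% in HepG2 anti-HOXA13, 0.903% in Huh7 anti-HA and 1.19% in Huh7 anti-HOXA13. Only 46 intervals were 1000 bp or longer, 26 of them at 5-fold or more. After the chromosome 21 interval, the widest 9 all lay on chromosome 16 between 46385830 and 46434601, next to the centromere gap, with widths of 1658 to 2921 bp and folds of 1.84 to 1.86. Among wide and tall ones were chromosome 6, 142696327 to 142697828 (1502 bp, 17.2-fold from 174 fragments) and chromosome 2, 42449484 to 42450839 (1356 bp, 16.9-fold from 143 fragments).

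Expected pileups ranged from the background of 2.62 to 145.6, which is 55.6 times the background. Intervals with raised input, meaning an expected pileup over 3 times the background, numbered 5783 (17%, 16.6 to 17.4%). They made up 78.4% (76.1 to 80.7%) of the 1275 intervals below 2-fold and 5.84% (3.30 to 9.44%) of the 257 at 15-fold or more. The expected pileup is the lower term of the fold, and the list was limited by p. An interval of low fold passes such a limit only where its pileups are high, so this contrast follows in part from the definitions. Of the raised intervals 21.2% (20.1 to 22.3%) overlapped Huh7 anti-HA and 7.89% (7.20 to 8.61%) HepG2 anti-HOXA13, and of the others 4.08% (3.85 to 4.32%) and 3.50% (3.29 to 3.72%).

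The highest levels of both libraries lay on chromosome 16. The highest ChIP pileup of the list was 270, which is 2 times the shortest interval width in bp. The commonest expected pileups above the background lay a median of 0.539 apart, while others fell between them, and the highest expected pileup was 270.1 times that step. At the 18 intervals within 5% of the highest ChIP pileup, 16 of them on chromosome 16, the fold lay between 1.83 and 1.94, and 1 divided by the step of 0.539 is 1.86. Whether duplicate reads were limited is not stated for these data, and its part in this level was not tested.

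**Figure D3:**
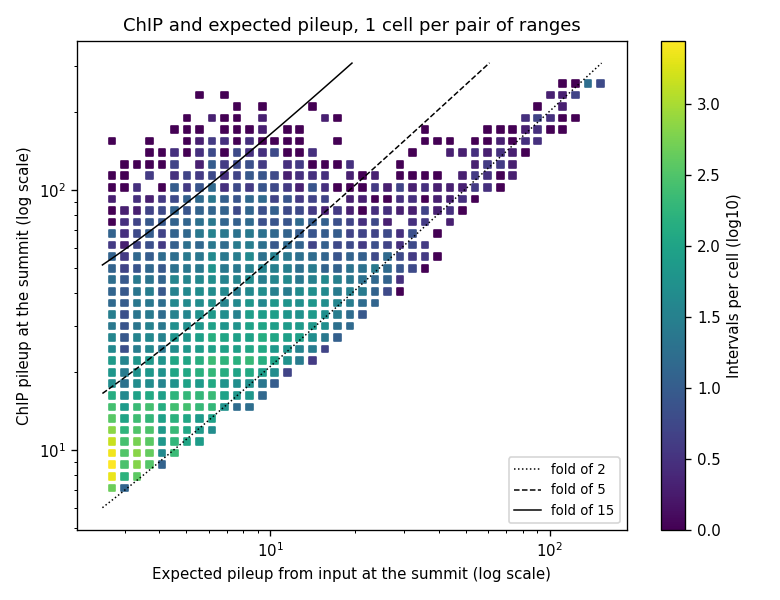
ChIP pileup (vertical axis) against the pileup expected from input (horizontal axis) at the summits of the HepG2 anti-HA intervals, both on log scales; colour gives the number of intervals per cell and lines mark folds of 2, 5 and 15. At the background of 2.62 sat 20.8% of intervals, the median expected pileup was 3.77, and the intervals nearest the highest pileup of 270 stood just below the line of 2-fold.

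Gaps were longer in the sets with fewer intervals, and in each set the median gap lay below the covered length per interval. Both also hold for points placed at random, and clustering was not tested. The median distance from one interval to the next was 33.1 kb over the whole list, 287 kb among intervals of 5-fold or more and 6331 kb among those of 15-fold or more, where the covered length per interval was 79.1, 730 and 10496 kb. In the other lists, which differ in length, the median distance was 13.4 kb in HepG2 anti-HOXA13, 42.4 kb in Huh7 anti-HA and 115 kb in Huh7 anti-HOXA13. Of the gaps between neighbours in the whole list, 24.5% (24 to 24.9%) were 10 kb or shorter, and of those between intervals of 5-fold or more 9.07% (8.16 to 10.0%) were. Another interval of any height lay within 10 kb of 37.8% (37.1 to 38.6%) of the class from 2- to 3-fold and of 44.6% (41.9 to 47.4%) of the class below 2-fold. The share was 47.6% (45.5 to 49.7%) between 5- and 8-fold, and 49.8% (43.5 to 56.1%) in the class beginning with 15-fold. Of the 20 highest, 11 had such a neighbour, the nearest being 0.121 kb away beside the chromosome 21 interval.

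**Figure D4:**
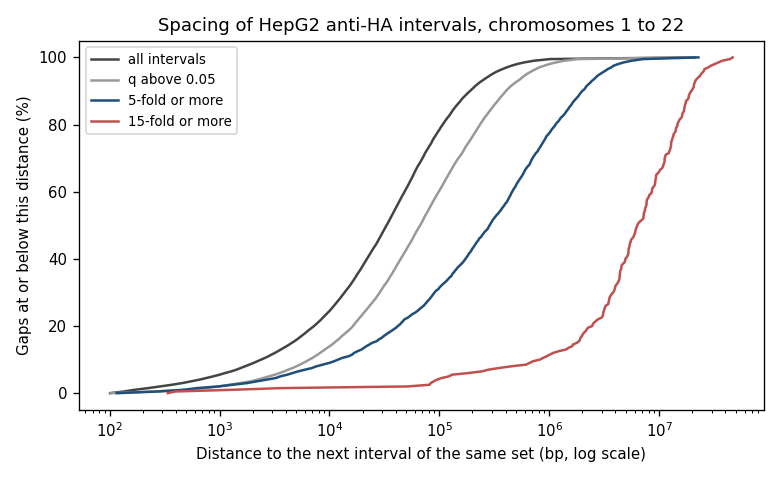
Cumulative share of gaps (vertical axis, percent) by the distance to the next interval of the same set (horizontal axis, bp, log scale) for all HepG2 anti-HA intervals, those with q above 0.05, and those of 5-fold or 15-fold or more. Medians were 33.1 kb, 66.9 kb, 287 kb and 6331 kb in that order.

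A few of the tallest intervals came in pairs. On chromosome 1, intervals of 20.3-fold and 15.2-fold at 172328743 to 172329254 and 172329594 to 172330130 were 339 bp apart. On chromosome 18, intervals of 19.3-fold and 18.5-fold at 59955084 to 59955618 and 59955992 to 59956698 were 373 bp apart, and on chromosome 20 the interval of rank 8 followed one of 17.5-fold at 50282126 to 50282957 after 0.504 kb. Chromosomes 11 and 4 held the other 2 pairs closer than 10 kb. When intervals no more than 10 kb apart were joined, 315 of the 25757 resulting groups held 2 or more intervals of at least 5-fold and none held more than 4. The 4-member groups lay on chromosome 15 (60867319 to 60884901, highest fold 19.9), chromosome 1 (214680385 to 214697178, 11.9), chromosome 8 (146247235 to 146255239, 9.60) and chromosome 6 (26532960 to 26577501, 6.11).

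The runs with the most intervals were made up mainly of low ones, and many lay beside centromeres. Of the 34089 intervals 20417 (59.9%, 59.4 to 60.4%) stood alone, and 38 runs had 10 or more members, 724 in all. Only 11 of these 724 reached 5-fold, against 10.8% of the list. The fullest run lay on chromosome 21 at 10773869 to 10921530, with 89 intervals of 1.72- to 4.45-fold, and HepG2 anti-HOXA13 held 168 intervals there, Huh7 anti-HA 1 and Huh7 anti-HOXA13 none. On chromosome 16, 46385830 to 46435559 held 40 intervals, all with raised input, and the other lists held 44, 51 and 1 in the same order. Chromosome 21, 10698905 to 10762303, held 35 intervals and none with raised input. Chromosome 19, 36759600 to 36800638, held 33 intervals of 1.86- to 4.22-fold, 21 with raised input, and chromosome 5, 49405792 to 49441086, held 33, all with raised input. Among the 38 runs, 16 lay within 1 Mb of one of 18 stretches of at least 2.9 Mb without an interval of any list, taken as centromere gaps, and none of their 418 members reached 5-fold.

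Near centromere gaps and near the outermost intervals of each chromosome the list was mostly low. Within 1 Mb of a gap lay 2.70% (2.54 to 2.88%) of all intervals and 0.352% (0.188 to 0.601%) of those of 5-fold or more, on 1.32% of the covered length. Within 1 Mb of the outermost interval of any list lay 2.17% (2.02 to 2.33%) of all intervals and 1.16% (0.844 to 1.56%) of those of 5-fold or more, on 1.63% of the covered length. On chromosomes 13, 14, 15 and 22 the first 10 Mb held no interval of any list, and on chromosome 21 only 0.584 Mb of them was covered. On all of these the first interval does not mark the start of the chromosome.

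By strong intervals, 3 of the 4 fullest megabases adjoined on chromosome 6, and the other was chromosome 16 from 46 to 47 Mb, beside the centromere gap, with 39 strong of 54 and none of 5-fold. The adjoining 3 megabases from 26 to 29 Mb held 142 intervals, 107 of them strong (75.4%, against 21.2% of the list). They were picked by their count of strong intervals, so a high share follows in part from that choice. From general knowledge, this part of the short arm carries the main histone gene cluster and a large group of tRNA genes. RefSeq, on GRCh38.p14, places 55 of 92 histone genes and 155 of 465 tRNA genes on chromosome 6. Whether single intervals lie on those genes was not analysed. Raised input was under 91 of the 107 (85.0%, 76.9 to 91.2%), against 30.3% (29.3 to 31.4%) of strong intervals elsewhere, and these 91 stood at 2.91- to 9.49-fold with a median of 57 fragments over 12.4 expected. None of the 107 overlapped a HepG2 anti-HOXA13 interval, which allows a share of up to 2.80%, while 26 (24.3%) overlapped Huh7 anti-HA and 4 (3.74%) Huh7 anti-HOXA13. Of the 7109 strong intervals elsewhere, 3.83%, 13.8% and 1.17% overlapped these lists in the same order.

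At 5-fold or more the stretch, picked by strong intervals, held 27 of 142 intervals (19.0%, 12.9 to 26.4%), against 10.8% of the list. Its highest interval, at 27868046 to 27868528, had no raised input and reached 18.4-fold (15.4 to 21.8), and next came 26705910 to 26706353 at 9.49-fold (7.94 to 11.3) from 130 fragments over 12.8 expected.

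Strong intervals with raised input also filled 2 runs on chromosome 1. The run at 161391802 to 161441136 held 21 intervals, 19 of them strong and 19 with raised input, and 16 intervals of Huh7 anti-HA but none of HepG2 anti-HOXA13. The run at 228746001 to 228782072 held 18 intervals, 17 strong and all with raised input, and 25 intervals of Huh7 anti-HA, 3 of HepG2 anti-HOXA13 and 5 of Huh7 anti-HOXA13. Chromosome 1 as a whole carries 98 of the 465 tRNA genes and 33 of the 55 ribosomal RNA genes of the RefSeq table. The positions of the 2 runs relative to these genes were not analysed. The median expected pileups of these 2 runs were 23.7 and 29.3 and the median folds 3.62 and 3.14. The runs beside the centromere of chromosome 8, at 43820992 to 43838762 and 46838999 to 46856308, also had raised input at all 26 intervals each, with 22 and 23 of them strong, and had median expected pileups of 60.1 and 77.9 and median folds of 1.96 and 1.92.

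By intervals of 5-fold or more the fullest megabase was another one, from 69 to 70 Mb on chromosome 4. It held 14 such intervals among 35, where the mean over 2696 megabases was 1.37, and 1 of the 35 had raised input. The 14 ran from 5.05-fold to the 29-fold interval of rank 10, with 12.2-fold at 69681351 to 69681916, 11.9-fold at 69598453 to 69599208 and 10.5-fold at 69165692 to 69166071. From general knowledge this part of the long arm carries the UGT2 genes, which encode enzymes that attach glucuronic acid to steroids and drugs in the liver. RefSeq places all 10 protein-coding UGT2 genes on chromosome 4, and the positions of the intervals relative to them were not analysed. Chromosome 20 from 52 to 53 Mb and chromosome 5 from 95 to 96 Mb followed with 11 each, and the former had raised input at 22 of its 42 intervals. Across the megabases, 1596 (59.2%) held at least 1 interval of 5-fold or more, 177 held 5 or more, and the variance of the count was 2.17 times its mean.

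Across chromosomes the tall intervals were spread more evenly than the weak ones. The density of intervals of 5-fold or more was within 0.8 to 1.25 times the median autosome on 19 of 22 chromosomes, and that of weak intervals, with q above 0.05, on 14. Chromosome 20 held 24.4 weak intervals per Mb, 5.98 times (5.68 to 6.30) the median autosome, but 1.13 times (0.908 to 1.39) for intervals of 5-fold or more. Chromosome 2 stood at 3.52 times (3.40 to 3.64) and 1.15 times (1.03 to 1.27), and chromosome 16 at 3.18 times (2.99 to 3.38) and 0.939 times (0.763 to 1.14). Over the 22 chromosomes, which are not replicates, the 2 densities were related with rho of 0.19. The expected pileup under intervals of 5-fold or more moved with the weak density, with rho of 0.62. Its median was 7.65 on chromosome 20, 7.58 on chromosome 16 and 6.59 on chromosome 2, against 4.31 on chromosome 4 and 3.97 on chromosome 13. The ChIP pileup was higher there as well, with a median of 71.5 fragments on chromosome 20 and 41 on chromosome 4, so that the median fold was 7.46 and 7.63.

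The outliers of the tall class were chromosomes 6, 19 and 22. Chromosome 6 held 1.35 times (1.2 to 1.51) the median density of intervals of 5-fold or more, with 301 of them. Chromosome 19 held 0.416 times (0.282 to 0.590), with 31, and chromosome 22 held 0.661 times (0.449 to 0.939), also with 31 and with none of 15-fold or more. Chromosomes 19 and 22 are rich in genes, with 25.9 and 12.8 protein-coding genes of the RefSeq table per covered Mb. Chromosome 17, with 15 such genes per Mb, stood at 1.09 times (0.903 to 1.31). Over all 22 chromosomes the density of tall intervals and that of genes were related with rho of −0.10.

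Within chromosomes the weak intervals changed density in steps that intervals of 5-fold or more shared only in part. The segments below were chosen after the counts in 10-Mb bins were seen, and no test was made. On chromosome 6 the segment from 70 to 110 Mb held 3.43 weak intervals per Mb (2.88 to 4.05) and the rest 13.2 (12.6 to 13.8), while intervals of 5-fold or more stood at 1.3 (0.971 to 1.70) and 1.95 (1.71 to 2.20). On chromosome 14 the weak density was 15.8 (14.4 to 17.3) below 50 Mb and 4.28 (3.76 to 4.85) above, and that of intervals of 5-fold or more was 1.26 (0.895 to 1.72) and 1.42 (1.12 to 1.76). On chromosome 17 the segment from 50 to 80 Mb held 9.13 weak intervals per Mb (8.08 to 10.3) against 4.74 (4.14 to 5.39), and intervals of 5-fold or more stepped the same way, at 2.03 (1.56 to 2.61) and 1.10 (0.825 to 1.44). The end of chromosome 1 beyond 220 Mb held 9.03 weak intervals per Mb (7.98 to 10.2) against 4.10 (3.83 to 4.39), and 1.47 intervals of 5-fold or more per Mb on both sides. On chromosome 20 the segment from 30 to 40 Mb was the sparser one, with 14.1 weak intervals per Mb (11.9 to 16.6) against 26.5 (25.1 to 28), and 1.1 (0.549 to 1.97) against 1.59 (1.26 to 1.98) of 5-fold or more.

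The steps were also present in the weak intervals of HepG2 anti-HOXA13. There the densities were 12.2 and 38.4 per Mb on chromosome 6, 57.1 and 18.8 on chromosome 14, 32.4 and 19.4 on chromosome 17, 35.3 and 16.6 on chromosome 1 and 57.4 and 110 on chromosome 20, segment first. In Huh7 anti-HA they were 17.4 and 11.2, 10.3 and 7.15, 10.1 and 11.1, 15.8 and 9.37, and 12.1 and 12.3, in the same order. Under the tall HepG2 anti-HA intervals the median expected pileup was 4.01 in the chromosome 6 segment and 6.47 in the rest, 7.13 and 4.31 on chromosome 14, 8.54 and 5.53 on chromosome 17, and 6.19 and 4.38 on chromosome 1. In these 4 the expected pileup was higher where weak intervals were denser. On chromosome 20 it went the other way, at 9.16 in the sparser segment and 7.58 in the rest, from 11 and 79 tall intervals. Copy number of the lines was not measured here. Its part, and that of input depth, in the counts by chromosome and segment was not tested.

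**Figure D5:**
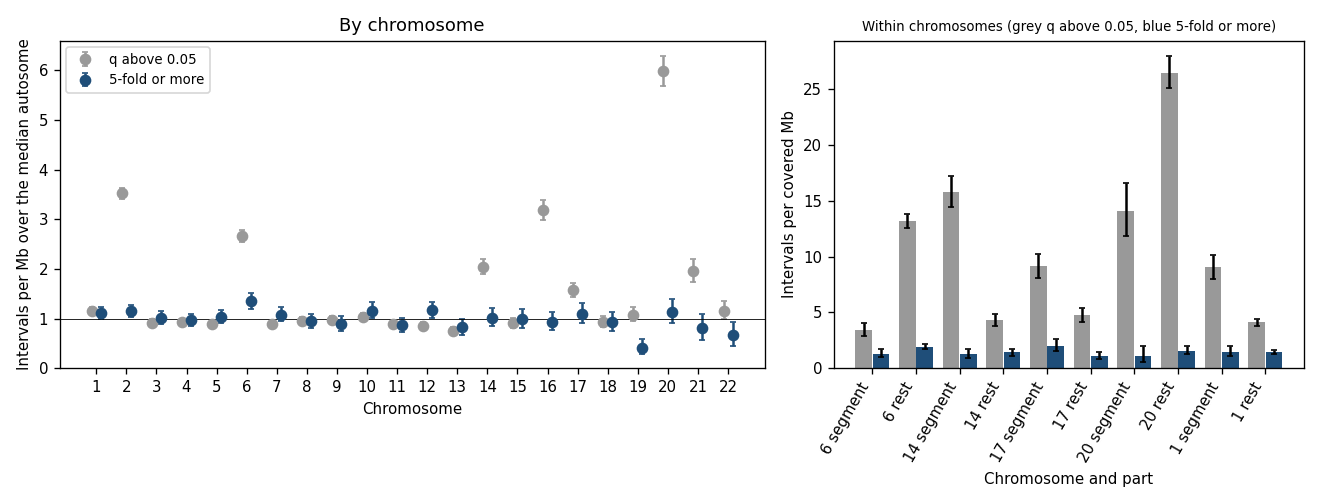
Left, HepG2 anti-HA intervals per covered Mb relative to the median autosome (vertical axis) by chromosome, for intervals with q above 0.05 (grey) and of 5-fold or more (blue); right, intervals per covered Mb in the segments of chromosomes 6, 14, 17, 20 and 1 and in the rest of each. Bars are 95% Poisson intervals. Weak intervals reached 5.98 times the median autosome on chromosome 20, where tall ones stood at 1.13 times.

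In windows of 2 Mb around genes of interest, the share of intervals that were tall was near that of the whole list. The count of tall intervals per window differed by group. The windows were placed at whole megabases from general knowledge of GRCh37, since annotation of that build was not used, and the chromosome of all 22 matched the RefSeq table. An interval named for a window may lie over 1 Mb from the gene and is not assigned to it. At least 1 interval of 5-fold or more lay in 19 of the 22, and in 79.5% (77.2 to 81.6%) of all 1351 such windows, where the median was 2 and the mean 2.72. The share of intervals at 5-fold or more was 11.8% (6.76 to 18.7%) around the HOX clusters, 13.0% (9.70 to 17%) around liver genes and 7.95% (5.16 to 11.6%) around mitosis and cell cycle genes, against 10.8% of the list. The median count of such intervals per window was 3, 4 and 1.5 in the same order, against 2 over the 1351 windows.

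Around the HOX clusters, which hold the HOX transcription factor genes including HOXA13 itself, the HOXA window had 8 intervals of 5-fold or more among 31, the HOXD window 4 of 56, the HOXC window 2 of 18 and the HOXB window 1 of 22. Of the 1351 windows, 78 (5.77%, 4.59 to 7.15%) held 8 or more. The highest were on chromosome 17 at 47674108 to 47674612 with 14.3-fold (11.9 to 17) in the HOXB window and on chromosome 7 at 26728037 to 26728776 with 12.5-fold (10.2 to 15.2) in the HOXA window. The highest HOXC interval, on chromosome 12 at 54372214 to 54372455, reached 8.94-fold (6.62 to 11.8) and the highest HOXD interval, on chromosome 2 at 176484041 to 176484633, 7.40-fold (5.40 to 9.90).

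Among liver genes, the window of the fibrinogen genes FGA and FGB, which encode clotting protein chains, held 10 intervals of 5-fold or more among 25. Of the 1351 windows, 29 (2.15%) held 10 or more and 78 (5.77%) held 8 or more. Its highest, on chromosome 4 at 154130454 to 154130985, reached 24-fold (19.8 to 28.8). The window of FOXA2, a pioneer factor of endoderm, held 9 among 108 with 23.1-fold (19.7 to 26.9) on chromosome 20 at 21069988 to 21070606. The window of ALB and AFP, which encode serum albumin and its fetal relative, held 8 among 31 with 11.8-fold (9.49 to 14.6) on chromosome 4 at 74297903 to 74298902. The window of APOB, the main protein of low-density lipoprotein, held 7 among 56 with a highest fold of 13.1 (11.1 to 15.4). Around APOA1, HNF4A and TF there were 4, 3 and 1, and around SERPINA1 there was none, its highest fold being 4.13 (2.63 to 6.21).

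Around cell cycle genes the counts ran from 0 to 9. The window of CDK1, the kinase that drives entry into mitosis, held 9 intervals of 5-fold or more among 29, with 15.9-fold (12.6 to 19.8) on chromosome 10 at 63855291 to 63855830. A count of 8 or more was found in 5.77% of all windows. Windows of BUB1B, a spindle checkpoint kinase, and CCNB1, the cyclin partner of CDK1, held 6 of 27 and 5 of 29. The window of AURKA, a mitotic kinase on chromosome 20, held 103 intervals and none of 5-fold, and its highest stood at 3.79-fold (2.14 to 6.29). Of all intervals on chromosome 20, 3.93% (3.17 to 4.81%) reached 5-fold, and 79.5% of all 1351 windows held at least 1 such interval. Around PLK1, MAD2L1, TPX2 and CCND1 there were 2, 1, 1 and none. The window of TERT, which encodes the catalytic subunit of telomerase, held 2 among 24, and the higher reached 21.5-fold (17.8 to 25.8) on chromosome 5 at 1227680 to 1228172.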

How the data were processed

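The samples were 12 ChIP-seq and input libraries, 1 per condition, and 4 peak lists of 1 ChIP library over 1 input each. The submitters' processing notes name BWA and MACS2. Their versions and settings, and the treatment of duplicate reads, are not stated in the sources used here. The deposited fold is the ratio of ChIP to expected pileup at the summit, with 1 added to each. Deposited −log10 p had a lowest value of 2.00 and −log10 q of 0, so p, rather than q, limited the authors' list. In 100% of intervals the authors' score equalled the whole part of the −log10 p times 10. The last column deposited by the authors, another whole number, is the summit's distance from the interval start.

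Pileups were solved from fold and p, within 0.001 of the −log10 p, for 34088 of 34089 intervals. Covered length leaves out stretches of 1 Mb or more without an interval of any list. Overlap needed 1 bp. Binomial (Clopper-Pearson) and Poisson 95% intervals cover counting error only, and the read depth of the libraries was not used. Where no interval overlapped a list, the share allowed is instead 3 divided by the number of intervals. Named regions were the 20 of highest fold, the widest, the runs with the most intervals and the fullest megabases. Segments and the runs on chromosome 1 were chosen after their values were seen. Members, lists and windows were chosen with earlier results of these data known. The planned nearest genes and HOX13 motifs were not run without GRCh37 annotation and sequence. The values of 1 liver gene window are not reported here, although the group counts include it. Alternatives were other thresholds, distances, lengths and overlaps. Scripts used Python 3.11.15, numpy 2.4.6, pandas 2.3.3 and scipy 1.17.1, checked on simulated lists.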

Additional observations from a re-analysis of the deposited data

Results flagged for a closer look

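Intervals of the same list outside chromosomes 1 to 22 entered none of the results above. Chromosome X held 473, of which 113 (23.9%) reached 5-fold, with 25.4-fold (20.5 to 31.1) at 148760662 to 148761174. Chromosome Y held 287, 6 of them at 5-fold or more. The decoy sequence held 5272, with 22 at 5-fold or more and a highest fold of 6.33 (4.25 to 9.11). Unplaced contigs held 535, with 17.6-fold (15.5 to 19.8) on GL000220.1. The mitochondrial sequence held 1 interval, from 10 to 16564, at 1.86-fold, the same fold as at the widest chromosome 16 intervals.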

How the results depend on the processing

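No paired analysis was possible because each group held 1 sample. The count of 7216 strong intervals fell to 4187 at −log10 q of 10 and to 3694 when 5-fold replaced q. The median width of 195 bp was 347 bp in strong intervals and 187 bp without raised input. The share of gaps of 10 kb or less, 24.5%, was 15.9% at 5 kb, 60.9% at 50 kb, 17.3% in strong intervals and 21.3% without raised input. Raised input underlay 33.0% of intervals at a limit of 2 times the background and 5.10% at 5 times. The densest autosome, chromosome 20 at 3.95 times the median over all intervals, was chromosome 16 at 1.60 times in strong intervals and chromosome 6 at 1.35 times in those of 5-fold or more. It kept 3.85 times when the full span replaced covered length. The share overlapping Huh7 anti-HA, 6.98%, was 4.07% when 50% of the interval had to be covered and 14% in strong intervals, and that for HepG2 anti-HOXA13, 4.24%, was 2.63% and 3.77%. Ranked by q in place of fold, 10 of the 20 highest were shared. Within 2 Mb of a centromere gap lay 4.17% of intervals. These shifts follow from the sets or limits chosen. The 5-fold and no-raised-input settings for density and gaps were chosen after seeing the data.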
